A study of Xenopus tropicalis with 4 samples.

Results

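Forkhead (Fox) proteins are transcription factors that bind DNA through a shared winged-helix domain, and the family is sorted by letter into subfamilies. Foxh1, the protein targeted in the study, partners with Smad2 in the response to Nodal signals. In frog embryos other forkhead genes mark the organizer, the neural plate, the mesoderm, the epidermis and the maternal RNA store. The account below is of 7 such genes: the Foxd genes foxd3, foxd4l1.1 and foxd4l1.2, the Foxc genes foxc1 and foxc2, and foxb1 and foxr1. They were taken by symbol from the 28850 genes listed for each library, and all 7 were present and passed the filter on low counts. The series compares animal cap explants, the ectoderm around the animal pole, cut from wildtype Xenopus tropicalis at stage 10.5, the early gastrula. Embryos were injected at the 1-cell stage with 22.5 ng of a standard control morpholino (control MO) or of a foxh1 morpholino (Foxh1 MO), and cultured at 25 °C. A morpholino is a stable antisense oligonucleotide that blocks the translation or splicing of an RNA, and the labels do not say which of these the foxh1 oligonucleotide does. Each group holds 2 libraries of poly(A) RNA, numbered 1 and 2, with no statement of shared clutches or of how many explants were pooled, so p-values measure only the spread between these libraries, which may be technical.

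Library totals ran from 25632619 to 29800530 expected counts. CPM here are counts scaled to library size times a TMM factor, edgeR's correction of the library size. The factor was 1.055 and 0.9544 in control MO 1 and 2 and 0.9595 and 1.035 in Foxh1 MO 1 and 2. The foxh1 transcript was present at 79.3 and 71.2 CPM in the control libraries. It was 2.91-fold higher, at 264 and 174 CPM, in those labelled Foxh1 MO. This transcript level gives no measure of Foxh1 protein, so directions below are stated for the libraries as labelled. All 15 ectoderm marker genes listed were detected. In Foxh1 MO 8 of them were called higher and 1 lower, beside 4.17% and 4.07% of all tested genes. Their summed level was 2801 and 2906 CPM in control MO and 3131 and 3392 CPM in Foxh1 MO. In TPM (transcript numbers scaled by length and library) the groups overlapped, at 5207 and 5057 in control MO and 4798 and 5372 in Foxh1 MO. Epcam alone, which was not called, gave 1076 and 1067 CPM in control MO and 1068 and 1121 CPM in Foxh1 MO. Less RNA per cell and fewer cells of a type cannot be told apart in these bulk samples.

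All 7 genes were lower in both libraries labelled Foxh1 MO than in either control library, a pattern that 24.3% of all 13756 tested genes also showed. A gene was called when its adjusted p (edgeR quasi-likelihood test, Benjamini-Hochberg over all tested genes) was under 0.05. By this rule 4 of the 7 fell, namely foxd3, foxc2, foxr1 and foxd4l1.2, and 0 rose. Among all tested genes, 8.24% were called, 4.07% lower and 4.17% higher. All 7 had an unadjusted edgeR p under 0.05, as did 21.6% of all tested genes in either direction. The median log2 fold change of the 7 genes was -1.33, and that of all tested genes was -0.00019. In the authors' deposited table the same 4 genes had a false discovery rate under 0.05 and a negative fold change, beside 5.02% of the genes in that table. The deposited log2 fold changes of the 7 genes lay closer to a refit with replicate number as a block than to the fit used here. For foxd3 the value was -1.417 deposited, -1.417 with the block and -1.372 without. The deposited false discovery rate of foxd3 was 7.94e-05, and its edgeR adjusted p was 0.000103 with the block and 0.0245 without. The block fit estimates a further term from the same 4 libraries, so its smaller p is no added evidence from replicates. Why the values differ was not tested.

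**Figure D1:**
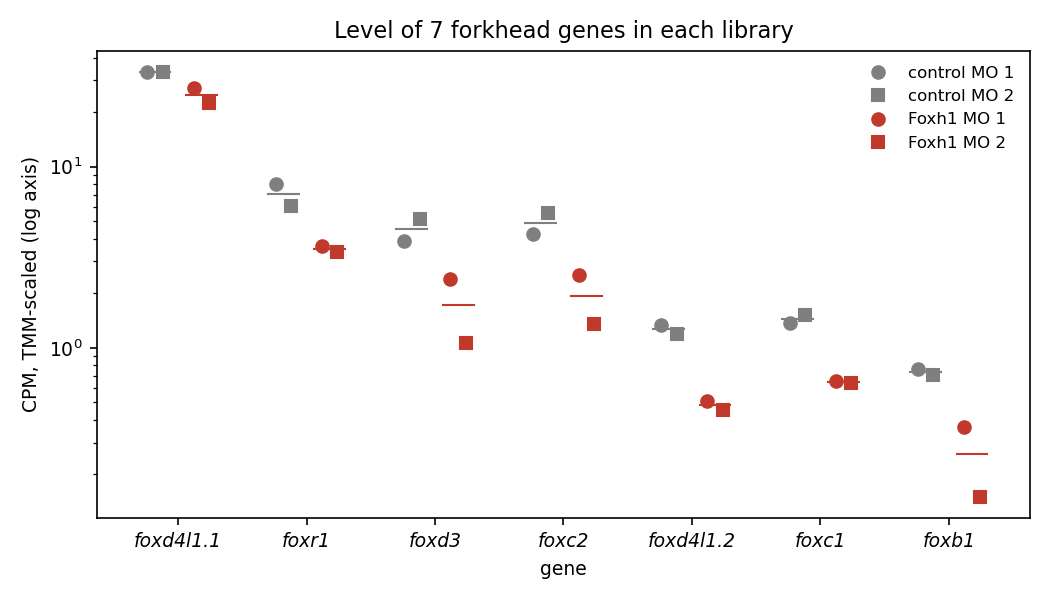
Level of each of the 7 forkhead genes in CPM (log axis), with grey points for control MO, red points for Foxh1 MO, circles for library 1, squares for library 2 and lines at the group means (n = 2). For every gene both red points lie below both grey points, and foxd3, foxc2 and foxb1 show the widest gap between the Foxh1 MO libraries. The foxb1 gap, from 10 and 4 counts, is within counting error.

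Compared per transcript length, in the authors' TPM (transcript numbers scaled by length and library), the control caps held the 7 genes at very different levels. Foxd4l1.1 stood at 55.4 and 50.4 TPM in control MO 1 and 2, which placed its mean 4th among the 44 forkhead genes listed, foxh1 included. Foxr1 followed at 20.3 and 14.2 TPM. The mean of foxd3 was 6.75 ± 0.863 TPM (SD, n = 2) and that of foxc2 was 5.48 ± 0.636 TPM, a difference smaller than the sum of their SDs. Their libraries did not overlap in control MO but did in Foxh1 MO, at 3.47 and 1.57 TPM for foxd3 and 2.71 and 1.51 TPM for foxc2. Lowest were foxd4l1.2 at 2.42 and 1.96 TPM, foxc1 at 1.49 and 1.5 TPM and foxb1 at 0.820 and 0.690 TPM. The order of the group means was the same in the Foxh1 MO libraries, from 38.2 ± 4.31 TPM for foxd4l1.1 to 0.270 ± 0.127 TPM for foxb1.

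Foxd3 encodes a repressor that is made in the frog organizer at gastrulation and later in the premigratory neural crest. Its expected counts were 122 and 146 in control MO 1 and 2 and 66 and 28 in Foxh1 MO 1 and 2. Scaled to library size with the TMM factor, these were 3.89 and 5.14 CPM against 2.41 and 1.06 CPM. The groups did not overlap, and Foxh1 MO 2 was the lowest library. Foxd3 was 2.59-fold lower in Foxh1 MO (log2 fold change -1.37, SE 0.33, edgeR adjusted p = 0.0245). Foxh1 MO 1 stood 2.28 times above Foxh1 MO 2 (95% exact interval 1.45 to 3.69), a gap beyond counting error within the group. Without Foxh1 MO 2 the log2 fold change was -0.91 and the call was lost, while without Foxh1 MO 1 the log2 fold change was -2.08. Each fit with a library left out has 1 library in a group, assumed to vary like the other group. Adjusted p-values of such fits, given below, measure no spread within that group.

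Foxd4l1.1, known earlier as Foxd5, is a neural plate gene whose protein in Xenopus laevis holds neural precursors in an immature state. It was the most abundant of the 7, with 33.1 and 33.3 CPM in the controls against 27.1 and 22.4 CPM in Foxh1 MO. After TMM scaling the control libraries differed by less than counting error, with a ratio of 0.996 (95% exact interval 0.911 to 1.09). That closeness depends on the scaling, as their counts were 1040 and 946 and their TPM 55.4 and 50.4. Both Foxh1 MO libraries lay below both control libraries. The gene was 1.34-fold lower and did not pass the test (log2 fold change -0.42, SE 0.15, edgeR adjusted p = 0.107). Without Foxh1 MO 1 the log2 fold change was -0.56, and without Foxh1 MO 2 it was -0.30.

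Foxd4l1.2 stands next to foxd4l1.1 in the gene order of the RefSeq annotation, with no other annotated gene between them. It had 42 and 34 counts in control MO and 14 and 12 in Foxh1 MO. At 1.34 and 1.2 CPM against 0.511 and 0.453 CPM the groups were apart, and libraries of each group were close together. The gene was 2.62-fold lower (log2 fold change -1.39, SE 0.39, edgeR adjusted p = 0.0460). The fold was steady when each library was left out in turn (log2 fold change -1.47 to -1.30), but the call ended whichever one was removed. The edgeR adjusted p was 0.151 without control MO 1, 0.0808 without control MO 2, 0.0715 without Foxh1 MO 1 and 0.217 without Foxh1 MO 2.

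Reads of such paralogs can be split between rows by the estimate of counts, so they were also added up. Foxd4l1.2 made up 3.88% of the counts of both genes in control MO 1 (95% Wilson interval 2.88 to 5.21) and 3.47% in control MO 2 (2.49 to 4.81). In Foxh1 MO 1 and 2 the share was 1.85% (1.1 to 3.08) and 1.98% (1.14 to 3.43). The Foxh1 MO shares were lower than both control shares, although the interval of each overlapped the control intervals, and these intervals cover counting error only. With the counts of the pair added, the sum was 34.5 CPM in each control library and 27.6 and 22.9 CPM in Foxh1 MO. It was 1.37-fold lower and did not pass (log2 fold change -0.45, SE 0.15, edgeR adjusted p = 0.0857). Without Foxh1 MO 1 the log2 fold change of the sum was -0.59, and without Foxh1 MO 2 it was -0.33.

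The Foxc genes encode activators that in the mouse act in somite formation and in blood vessel and kidney development, and they mark paraxial mesoderm early. Foxc2 measured 4.27 and 5.52 CPM in the controls against 2.52 and 1.36 CPM in Foxh1 MO, from counts of 134, 157, 69 and 36. Foxh1 MO 2 was again the lowest library, and Foxh1 MO 1 exceeded it 1.85 times (95% exact interval 1.22 to 2.86). The gene was 2.51-fold lower (log2 fold change -1.33, SE 0.29, edgeR adjusted p = 0.0161). The call was lost without Foxh1 MO 2 (log2 fold change -0.96, edgeR adjusted p = 0.0812), and the value was -1.84 without Foxh1 MO 1.

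Foxc1 was rarer, with 43 counts in each control library and 18 and 17 in Foxh1 MO. Its levels were 1.37 and 1.51 CPM against 0.657 and 0.641 CPM, so libraries of a group nearly coincided and the groups were apart. It was 2.21-fold lower and missed the threshold (log2 fold change -1.14, SE 0.36, edgeR adjusted p = 0.0752). It passed with no filter on low counts (edgeR adjusted p = 0.0444) and with a filter of 1 CPM in 2 libraries (edgeR adjusted p = 0.0452). It did not pass in the DESeq2 Wald test (adjusted p = 0.265) or limma-voom (adjusted p = 0.0797). Foxc1 took 24.3% (18.6 to 31.1) and 21.5% (16.4 to 27.7) of the counts of the Foxc pair in control MO 1 and 2. The shares in Foxh1 MO 1 and 2 were 20.7% (13.5 to 30.4) and 32.1% (21.1 to 45.5), on either side of the control values, and no shift was detectable at this depth.

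**Figure D2:**
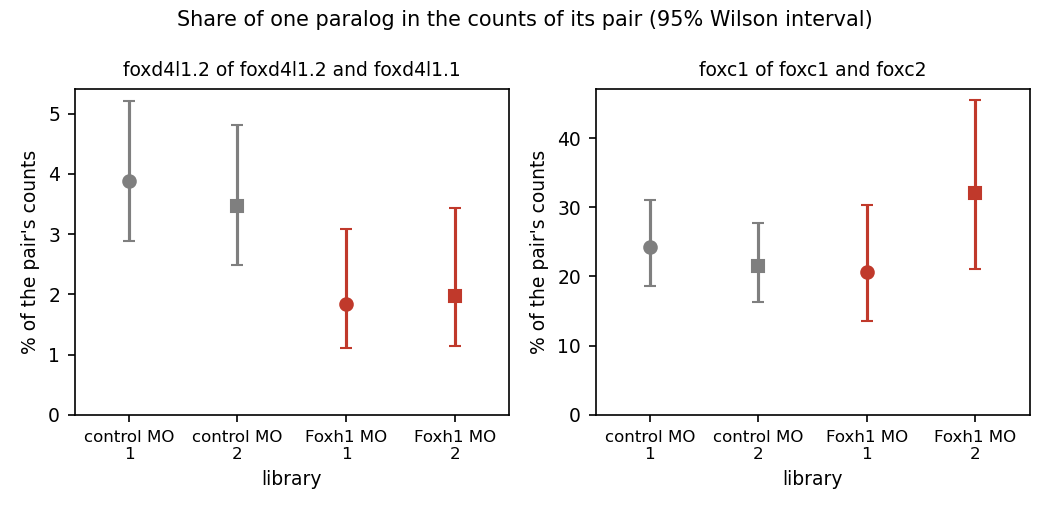
Share of foxd4l1.2 in the counts of the foxd4l1 pair (left) and of foxc1 in the counts of the Foxc pair (right), in percent per library, with 95% Wilson intervals; grey is control MO and red is Foxh1 MO. The foxd4l1.2 share is 3.47% to 3.88% in control MO and 1.85% to 1.98% in Foxh1 MO, while the foxc1 shares of the groups overlap.

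Foxb1 is a gene of the developing neural tube and hypothalamus in the mouse. It was close to the limit of detection, with 24 and 20 counts in control MO and 10 and 4 in Foxh1 MO. The corresponding 0.765 and 0.704 CPM against 0.365 and 0.151 CPM did not overlap. Foxh1 MO 1 stood 2.42 times above Foxh1 MO 2, a gap within counting error (95% exact interval 0.698 to 10.6). The gene had the largest fold of the 7, 2.8-fold lower, and also the largest error, and was not called (log2 fold change -1.49, SE 0.52, edgeR adjusted p = 0.104). Its log2 fold change was -2.25 without Foxh1 MO 1 and -1.01 without Foxh1 MO 2. Nor was it called in the DESeq2 Wald test (adjusted p = 0.368) or limma-voom (adjusted p = 0.0925). The files list more than 1 transcript for foxb1, and its deposited length was 2406 bases in 3 libraries and 2056 bases in Foxh1 MO 2, where the estimate rests on 4 counts.

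Foxr1 is a divergent forkhead gene whose transcript is stored in the egg and whose loss in zebrafish mothers impairs early development of the eggs they lay. Its levels were 7.97 and 6.09 CPM in the controls against 3.65 and 3.357 CPM in Foxh1 MO, from 250, 173, 100 and 89 counts. The Foxh1 MO libraries were alike, and the control libraries differed 1.31 times (95% exact interval 1.07 to 1.60). Foxr1 was 2.01-fold lower (log2 fold change -1.0, SE 0.22, edgeR adjusted p = 0.0137). It had the smallest adjusted p of the 7 genes with all libraries, and its log2 fold change was -0.95 without Foxh1 MO 2. Without control MO 1 its log2 fold change was -0.80 and it just missed the threshold (edgeR adjusted p = 0.0504).

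**Figure D3:**
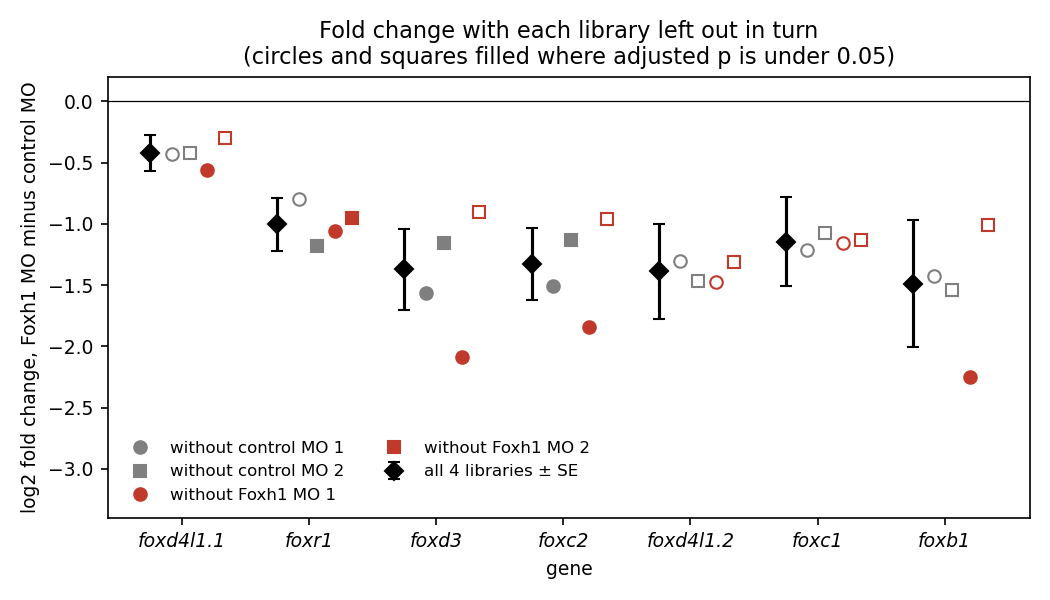
Log2 fold change (Foxh1 MO minus control MO) of each gene with all 4 libraries (black, ± SE) and with each library left out, filled where the edgeR adjusted p is under 0.05. All values lie below 0, and those of foxd3, foxc2 and foxb1 spread most, with foxd3 at -2.08 without Foxh1 MO 1 and -0.91 without Foxh1 MO 2.

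The 7 genes differed in their course over the 4 libraries. Foxd3 and foxc2 had the most similar course, with a Euclidean distance of 0.220 between their 4 log2(CPM + 0.05) values centred on each gene's mean. The next closest were foxd4l1.2 and foxc1, at 0.313, where libraries within a group hardly differed. Foxd3 and foxd4l1.1 lay furthest apart at 1.23. All 7 genes were lower in Foxh1 MO 2 than in Foxh1 MO 1, beside 49.6% of all tested genes. For foxd4l1.2, foxc1, foxb1 and foxr1 this order was within counting error. It was beyond counting error for foxd3, foxc2 and foxd4l1.1 (95% exact interval of the ratio 1.09 to 1.35 for foxd4l1.1). In the controls, 4 of the 7 were higher in control MO 2 than in control MO 1, beside 52.8% of tested genes. Of these, foxd4l1.1 and foxc1 were within counting error. Foxd3 and foxc2 were beyond it (95% exact interval of the ratio 0.590 to 0.970 and 0.609 to 0.980).

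A search then covered tested genes other than the 7 that have a gene name, not only a LOC number or similar. At a mean level within 4-fold, the same distance gave for each of the 7 the 2 genes most similar in course. For both foxd3 and foxc2 these were cebpd, a C/EBP transcription factor gene, and arhgap27. Cebpd measured 15.7 and 20.3 CPM in the controls against 8.07 and 5.09 CPM in Foxh1 MO (distance 0.350 to foxd3 and 0.180 to foxc2). Hes2 and nfil3 lay closest to foxd4l1.2 (0.0639 and 0.0867), and kdr, the gene of a VEGF receptor, and sertad4 to foxc1 (0.0718 and 0.0976). For foxd4l1.1 they were stil and cyp3a4.3 (0.0308 and 0.0351), for foxb1 cldn5 and lrp3 (0.0862 and 0.131), and for foxr1 acer2 and ing1 (0.112 and 0.115). With 4 libraries in 2 groups, such distances describe these libraries only.

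Of the tested genes directly beside the 7 in the RefSeq gene order, none was called by edgeR other than foxd4l1.2 itself. Among all tested genes 8.24% were called, and so few neighbours cannot be told from that share. Of the nearest RefSeq neighbours of foxd3, alg6 and atg4c had log2 fold changes of 0.01 and -0.02 and were not called. Foxc2 is followed by foxl1, which had at most 1 count in a library, and is preceded by the cadherin gene cdh3, at 0.04. Foxc1 lies in a group with foxf2 and foxq1, both too low to test, and beside gmds, at 0.05. Next to foxr1, hmbs stood at 0.07 and ttc36 was too low to test, and next to foxb1, shf stood at -0.03. Pgm5, beyond foxd4l1.2, had -0.51 and was not called (edgeR adjusted p = 0.393).

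The wider family shows how far the difference extends. Apart from foxh1, 43 forkhead genes were listed and 29 could be tested. Of these 6 were called lower and 1 higher, beside 4.07% and 4.17% of all tested genes, and 22 missed the threshold. A negative log2 fold change was found in 26 of the 29, beside 6883 of all 13756 tested genes, and the median was -0.52. Among the 22 outside the 7 genes, 2 were called lower and 1 higher and 19 missed the threshold, with a median of -0.47. The ciliary regulator foxj1 fell from 41.8 and 52.1 CPM to 29.1 and 17.8 CPM (2.0-fold lower, log2 fold change -1.0, edgeR adjusted p = 0.0105). The early ectoderm gene foxi2 fell from 86.9 and 89.0 to 60.7 and 56.9 CPM, and the ionocyte regulator foxi1 rose from 35.9 and 50.3 to 63.5 and 97.7 CPM (edgeR adjusted p = 0.0199 and 0.0197). The call of foxi1 was lost without control MO 1 (edgeR adjusted p = 0.0518) or Foxh1 MO 2 (0.0914), and that of foxi2 without control MO 1 (0.0759) or control MO 2 (0.124).

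Several other abundant forkhead genes were not called. Foxi4.2, the highest at a mean of 350.2 CPM, had a log2 fold change of -0.01, which turned to 0.16 without control MO 2 and to 0.14 without Foxh1 MO 2. The values for foxn2 and foxn3 were -0.11 and -0.18. Those for foxk2, foxp1 and the cell cycle regulator foxm1 were -0.52, -0.49 and -0.47 (edgeR adjusted p 0.126, 0.142 and 0.181). Without Foxh1 MO 1 these 3 stood at -0.85, -0.83 and -0.86, and without Foxh1 MO 2 at -0.25, -0.21 and -0.16. Foxk2 stood at -0.65 without control MO 1 and at -0.37 without control MO 2. With all libraries, foxk2 passed with upper-quartile scaling (edgeR adjusted p = 0.0438) and with no filter on low counts (0.0435). It also passed in the limma fit on log2(TPM + 0.1) (adjusted p = 0.0446).

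**Figure D4:**
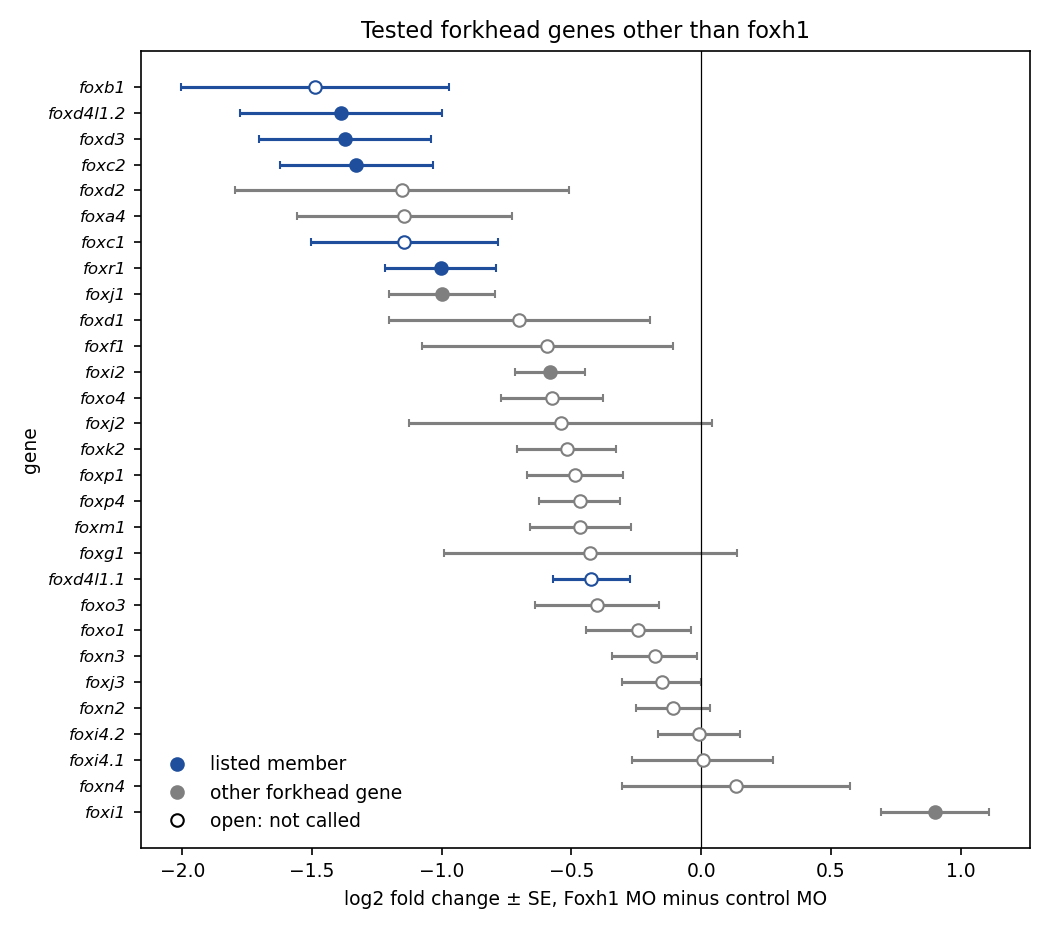
Log2 fold change ± SE (Foxh1 MO minus control MO, edgeR) of the 29 tested forkhead genes other than foxh1, with the 7 described genes in blue, the rest in grey and open points for genes not called. The 7 genes lie between -1.49 and -0.42, and 26 of the 29 genes lie below 0, beside 6883 of all 13756 tested genes.

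Companion genes of these factors were counted next, from lists of tissue and pathway genes chosen with earlier results of these data known. Of 25 tested neural plate genes, where the foxd4l1 genes act, 12 fell and 0 rose, beside 4.07% and 4.17% of all tested genes. Among them were sox1 (2.13 ± 0.267 to 0.426 ± 0.0688 CPM), zic5 (3.90 ± 0.249 to 1.1 ± 0.366 CPM) and the POU gene pou3f2 (2.47 ± 0.385 to 0.926 ± 0.0834 CPM), the last not called without Foxh1 MO 2 (edgeR adjusted p = 0.0788). The LIM homeobox gene lhx5, at a mean of 240.2 CPM, had a log2 fold change of -0.21 and was not called. The median over the list was -0.63.

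Of 15 tested neural crest and plate border genes, where foxd3 acts later, 4 fell and 4 rose, beside 4.07% and 4.17% of tested genes. The median over the list was 0.07. Sox8 fell 2.96-fold (5.15 ± 0.0668 to 1.73 ± 1.06 CPM), twist1 2.7-fold and pax3 2.47-fold. The log2 fold change of sox8 was -1.57, but -2.38 without Foxh1 MO 1 and -1.06 without Foxh1 MO 2. Those that rose included the border genes msx1 (1.94-fold), prdm1 (1.67-fold) and tfap2a (1.60-fold). Tfap2e, which fell 2.08-fold, and ets1, which rose from 112.9 and 96.6 CPM to 163.8 and 168.3 CPM, were named after their values were seen. Tfap2c was not called, at 0.07 (-0.0484 without Foxh1 MO 1). Calls were lost for twist1 without control MO 1 or Foxh1 MO 2 (edgeR adjusted p = 0.167 and 0.110), for pax3 without control MO 2, Foxh1 MO 1 or Foxh1 MO 2 (0.228, 0.0627 and 0.142), for tfap2a without control MO 1 (0.106) and for prdm1 and ets1 without control MO 2 (0.0805 and 0.172).

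Of 11 tested paraxial mesoderm genes, the tissue of the Foxc genes, 3 fell and 2 rose, beside 4.07% and 4.17% of tested genes. The median over the list was 0.07. Another 9 genes of this list were too low to test, among them msgn1, mespa, mespb, myf5 and myod1. The protocadherin gene pcdh8 fell 5.30-fold, hes7.1 2.48-fold and evx1 2.38-fold, and the genes that rose were dlc, which encodes a Notch ligand (1.80-fold), and cdx4 (1.98-fold). The retinoic acid synthesis gene aldh1a2 was not called, at 0.07 (-0.0436 without control MO 2 and -0.0163 without Foxh1 MO 2). Evx1 was not called without Foxh1 MO 2 (edgeR adjusted p = 0.0903), nor cdx4 without control MO 1 or Foxh1 MO 2 (0.116 and 0.0684).

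Of 24 tested maternal oocyte genes, the class to which foxr1 belongs, 3 were called lower and 1 higher, with a median of -0.02. Among all tested genes 4.07% were called lower and 4.17% higher. Cdc25b fell 1.77-fold, patl2 1.52-fold and cpeb1 2.54-fold, and npm2 rose 1.5-fold. With all libraries, cpeb1 was not called by DESeq2 (adjusted p = 0.359) or limma-voom (0.11). Foxr1 fell 2.01-fold, and a stored transcript such as ccnb1.2 was at 0.11 and not called (-0.00625 without Foxh1 MO 2). Leaving out Foxh1 MO 2 ended all 4 calls (edgeR adjusted p = 0.0511 for cdc25b, 0.0716 for patl2, 0.0998 for cpeb1 and 0.122 for npm2). Cpeb1, at 16.2 and 5.49 CPM in control MO 1 and 2, had a log2 fold change of -1.35 with all libraries and of -0.36 without control MO 1. Cpeb1 and npm2 were also lost without control MO 1 (edgeR adjusted p = 0.558 and 0.261), and patl2 without control MO 2 (0.104).

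Of 16 tested genes of the Nodal pathway, in which Foxh1 works, 4 fell and 1 rose, beside 4.07% and 4.17% of tested genes. The median over the list was -0.25. The homeobox gene mix1 fell 5.85-fold, the ligand gene gdf3 4.64-fold and lhx1 3.32-fold, and the transducer gene smad2 rose 1.58-fold. Eomes, named after its values were seen, fell 1.95-fold. The coreceptor gene tdgf1.3 was not called, at 0.17. Calls were lost for smad2 without control MO 1 (edgeR adjusted p = 0.0933) and for eomes without control MO 2 or Foxh1 MO 2 (0.0595 and 0.0868).

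Markers of neighbouring tissues that an animal cap could hold were counted as well, and their calls went in both directions. Among all tested genes 4.07% were called lower and 4.17% higher. Some called markers were also counted in the lists above. These were otx2 (neural plate), lhx1 and mix1 (Nodal pathway), evx1 (paraxial mesoderm) and the ectoderm markers tfap2a and msx1 (neural crest and plate border). Of 6 tested organizer markers 4 fell (chrd.1, admp, lhx1 and otx2) and 1, not, rose, with nog, frzb, cer1 and dkk1 under 10 counts in every library. Their summed level was 83.5 to 85.6 CPM in control MO and 88.1 to 122 CPM in Foxh1 MO, of which not alone gave 60.3 to 60.7 and 79.1 to 112 CPM. The gene not lost its call when control MO 1, control MO 2 or Foxh1 MO 1 was removed (edgeR adjusted p = 0.0606, 0.0734 and 0.0687). Of 6 tested mesoderm markers 1, evx1, fell and 5 were not called. The sum was 62.8 to 80.4 CPM in control MO and 56.6 to 63.9 CPM in Foxh1 MO. Of this, vegt alone, which was not called, gave 51.3 to 63.8 and 46.0 to 51.4 CPM. Msgn1 was at 0 in every library, and mespa, mespb and fgf4 were under 10 counts in each. Of 9 tested endoderm markers 2 fell, mix1 and sox17b.1, and 6 were not called. Darmin rose, from a mean of 0.201 CPM in control MO to 2.01 CPM in Foxh1 MO. The endoderm sum was 24.6 to 31.1 and 19.1 to 20.1 CPM, with bix1.1 and nodal1 at 0. Of this, gata6 alone, which was not called, gave 13.6 to 16.9 and 10.8 to 11.6 CPM. The call of sox17b.1 ended without Foxh1 MO 1 or Foxh1 MO 2 (edgeR adjusted p = 0.0501 and 0.0735). The part of such cells in the levels of the forkhead genes was not tested.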

How the data were processed

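Poly(A) RNA of 4 libraries was analysed from the authors' deposited tables of expected counts, TPM and FPKM, with gene lengths, per the file headers. Per the submitters' processing notes, the software comprised R 4.1.2, edgeR 3.36.0, RSEM 1.3.3 and STAR 2.7.3a. Genome build and strand setting are not given in the sources used here, so reads of overlapping or near-identical genes may be shared. FPKM was not used further. The authors' deposited comparison table holds, per the file headers, log2 fold changes, an F score, p-values and false discovery rates. It has positive values for genes higher in Foxh1 MO.

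Expected counts were rounded to whole numbers for edgeR 4.0.16 under R 4.3.3 (filterByExpr with minimum count 10 and minimum total 15, TMM scaling, quasi-likelihood F test, no covariate). This left 13756 of 28850 genes. An SE is the absolute log2 fold change over the square root of F. The fit was also run on simulated counts with 200 changed genes and a common spread for all genes. That run does not measure the error of the calls given here. Values ± are SD of n = 2 libraries.

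The 7 genes, lists and tests were chosen with earlier results of these data known. Other genes were named by rule: foxh1, forkhead genes that were called or had at least 20 CPM, up to 3 called genes per direction and the most abundant uncalled gene of each list, and the 2 nearest in course. RefSeq (assembly UCB_Xtro_10.0) served only for gene order and matched all 7. Intervals and depth cover counting error only. Alternatives used DESeq2 1.42.0, limma 3.58.1, other scalings, filters and thresholds, TPM with 1 or 0.1 added, a length offset, a replicate block and each library left out.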

Additional observations from a re-analysis of the deposited data

How the results depend on the processing

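Outside the settings that leave out a library, 61 of 69 refits of the 7 genes kept direction and side of the threshold, 2 lost a call, 6 gained one and 0 changed sign. Foxd4l1.2 was not called by DESeq2 (log2 fold change -1.41, adjusted p = 0.195) or limma-voom (-1.36, 0.0530). Foxc1 was called with no filter (-1.14), with a filter of 1 CPM in 2 libraries (-1.16), and by limma on log2(TPM + 1) (-0.59) and log2(TPM + 0.1) (-1.08). Foxb1 was called in both of those limma fits (-0.47 and -1.25). Foxb1 stood at 0.151 to 0.765 CPM, so the filter of 1 CPM in 2 libraries removed it before the fit. Why calls differed between the other settings was not tested. On log2(TPM + 0.1), 10 forkhead genes other than foxh1 were called lower. With a 2-fold minimum 0 forkhead genes other than foxh1 were called higher, and 336 of all genes lower and 174 higher. All genes called lower numbered 862 with no filter and 872 on log2(TPM + 0.1), and 874 were called higher at an adjusted p under 0.1.

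With each library left out (the lone library is assumed to vary like the other group), log2 fold changes ran from -2.08 to -0.91 for foxd3, -0.56 to -0.30 for foxd4l1.1, -1.47 to -1.30 for foxd4l1.2, -0.59 to -0.33 for their sum, -1.22 to -1.07 for foxc1, -1.84 to -0.96 for foxc2, -2.25 to -1.01 for foxb1 and -1.18 to -0.80 for foxr1. Between 1 and 5 of the 7 were called lower and 0 higher. Forkhead genes other than foxh1 called lower ranged from 3 to 12 and higher from 0 to 1, and all genes from 337 to 1493 and 388 to 853. Calls ranged from 9 to 13 for neural plate, 5 to 7 for neural crest, 3 to 5 for paraxial mesoderm, 0 to 4 for maternal and 4 to 9 for Nodal genes. Foxi4.2 ranged from -0.18 to 0.16, tfap2c from -0.0484 to 0.19, aldh1a2 from -0.0436 to 0.20 and ccnb1.2 from -0.00625 to 0.21.

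Deviations of control MO 1 and Foxh1 MO 1 from their group means correlated at r = -0.0821 across 13756 genes. From 2 libraries a group, this single value cannot decide if an equal replicate number marks a shared origin. The deposited log2 fold changes of the 7 genes lay closer to the fit with this number as a block, and any pairing was not tested further. With the number as a block, 699 of all genes were called lower and 546 higher, 4 of the 7 genes were called lower, and foxd3 and foxc2 stood at -1.42 and -1.35. Depth limits foxb1 most, with 4 to 24 counts a library.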

Other observations

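The Foxa genes, whose products open chromatin in endoderm and in the organizer and notochord, were scarce in these caps. They were looked at after their values were seen. Foxa4, a notochord and floor plate gene, had 28 and 31 counts in control MO and 13 and 11 in Foxh1 MO, or 0.892 and 1.09 CPM against 0.475 and 0.415 CPM. It did not pass the test (log2 fold change -1.14, edgeR adjusted p = 0.119), but was called by limma on log2(TPM + 1) (-0.56, adjusted p = 0.0134) and on log2(TPM + 0.1) (-1.06, adjusted p = 0.0257). Foxa1 had 8 and 25 counts in control MO and 4 and 6 in Foxh1 MO, and foxa2 had 6 in each control library and 2 in each Foxh1 MO library, both too low to test. In all, 14 of the 43 forkhead genes other than foxh1 were too low to test.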
